A study of Mus musculus with 6 samples.

Results

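The genes described here encode the nuclear subunits of the mitochondrial respiratory chain and of ATP synthase. They were taken by symbol: those beginning with Nduf (complex I and its assembly factors), Uqcr or Atp5 (complex III and complex V), or with Cox4, Cox5, Cox6, Cox7 or Cox8 (complex IV). Sdha, Sdhb, Sdhc, Sdhd (complex II) and Cyc1 (complex III) were added by name. The rule found 91 of 18193 measured genes on 180 probe sets, and for each gene the probe set of greatest mean over the arrays was used. They divide into 36 genes of complex I, 8 complex I assembly factors, 4 genes of complex II, 9 of complex III, 17 of complex IV and 17 of complex V. Another 10 probe sets carry several symbols, of which at least 1 fits the rule, and were left out of the counts.

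Expression was measured on 6 arrays. Each was hybridised with RNA of small intestinal stem cells, sorted for high GFP from a mouse with the Lgr5-EGFP-IRES-creERT2 allele. The vehicle group holds 3 mice given DMSO, and the DBZ group 3 mice given DBZ, an inhibitor of the gamma-secretase complex that releases active Notch. Cells were collected at 24 h. All 6 mice carry the allele, in which EGFP and CreERT2 are expressed from the Lgr5 gene, and the labels give no age. The titles set the groups, while the description field of all 6 arrays names DMSO. The study made the comparison to find genes that respond to inhibition of NOTCH1 in the intestine.

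Complex I takes electrons from NADH and complex II from succinate, and both pass them through ubiquinone to complex III. Complex III hands them by cytochrome c to complex IV, which reduces oxygen. Complexes I, III and IV pump protons across the inner mitochondrial membrane, and complex V, the ATP synthase, uses the gradient to make ATP. A few core subunits are encoded in mitochondrial DNA and all others in the nucleus, so assembly needs both genomes. In the intestine, absorptive cells and crypt base stem cells are known for active mitochondrial respiration.

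Intensities are on a linear scale and differences are of log2(intensity + 16), DBZ minus vehicle. Array medians lay between 44.9 and 46.3. The epithelial gene Epcam had a vehicle mean of 18274 ± 1111 and a DBZ mean of 18665 ± 1296 (SD, n = 3). Lgr5, which marks the sorted cells, was at 245 ± 35.9 and 230 ± 18 in the same order. Other markers moved further. Of 10 stem cell markers 3 fell, with a lowest difference of -6.63, and the 10 epithelial markers ranged from -0.48 to 0.65. RNA quality, read from actin control probes as 3' over 5' signal, ranged from 1.61 to 2.22 among vehicle arrays and from 1.51 to 1.57 among those of DBZ, without overlap. The same ratio for Gapdh overlapped, at 1.07 to 1.42 and 1.05 to 1.09, and was high on vehicle 1. The part of RNA quality in the results was not tested. Across all genes 972 were changed (limma, Benjamini-Hochberg adjusted p under 0.05 over all genes), 695 higher and 277 lower. In bulk RNA, a lower level per cell and a smaller share of cells rich in mitochondria cannot be told apart.

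The genes were mostly a little lower after DBZ, and almost none passed the test alone. Of the 91 differences 76 were negative and 15 positive, with a median of -0.11 and quartiles of -0.26 and -0.035. The median of all 18193 genes was -0.017. Only Ndufb10, an accessory subunit of complex I, fell (limma, adjusted p = 0.0478), and 0 rose. The test called 5.34% of all genes, 3.82% higher and 1.52% lower, so the count of 1 shows no excess. Unadjusted p under 0.05 was reached by 24 lower and 1 higher, where 26.3% of all genes reached it, 11.3% lower and 15.1% higher (limma). Counts at unadjusted p under 0.05 given below are to be read beside these shares. The groups did not overlap for 31 of the 91 with DBZ lower, against 15.8% of all genes, and for 2 with DBZ higher, against 17.3%. Differences were small, since the 95% interval lay within -1 to 1 for 90 of the 91 and within -0.5 to 0.5 for 71. The call of Ndufb10 ended when any 1 of the 6 arrays was left out (adjusted p 0.0623 to 0.137, limma). Under quantile normalization 5 genes fell, namely Cox7a2l, Cox7c, Ndufa6, Ndufb10 and Ndufc2, and 78 of 91 were negative.

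The signal was strong, 74 of the 91 probe sets having a mean above 10 times the median probe set. Among the brightest 10% of genes, 920 of 1820 differences were negative, with a median of -0.0039. The 71 respiratory genes of that class had 63 negative differences and a median of -0.12. In that class DBZ arrays lay below all vehicle arrays for 24 of the 71, and for 329 of the 1820.

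**Figure D1:**
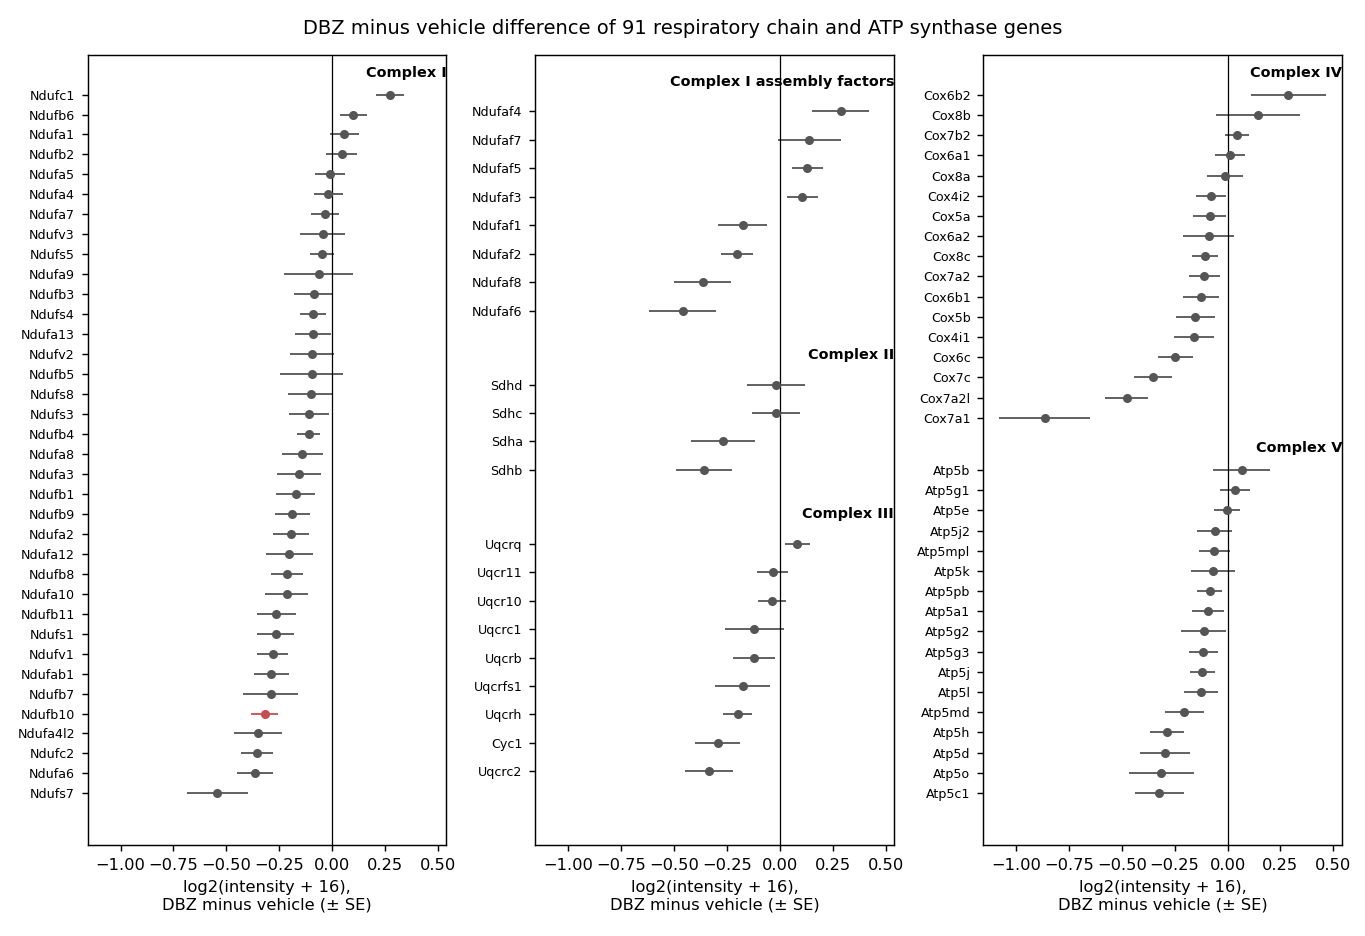
Difference of each of the 91 genes (points, log2(intensity + 16), DBZ minus vehicle) with its moderated standard error (bars), ordered within each complex; n = 3 mice per group. The red point is Ndufb10, the gene past the threshold. Most points lie between -0.5 and 0, with Cox7a1 lowest at -0.87.

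The DBZ arrays differed among themselves. The median over the 91 genes, each taken relative to its vehicle mean, was 0.0094, 0.030 and -0.041 on vehicle arrays 1, 2 and 3. It was -0.051, -0.11 and -0.22 on DBZ arrays 1, 2 and 3. All DBZ arrays were thus below the vehicle arrays, DBZ 1 by little and DBZ 3 by most. DBZ 3 held the lowest of the 6 values for 55 of the 91 genes, and vehicle 1 for 14. On DBZ 1, 38 genes were below all vehicle arrays, on DBZ 2 44 and on DBZ 3 63. Of all genes these shares were 30.4%, 31.7% and 39.2%. The 91 probe sets made up 4.25%, 4.02% and 3.91% of the summed gene intensity on vehicle arrays and 3.82%, 3.59% and 3.33% on DBZ arrays. Without DBZ 3 the median difference was -0.081 with 69 negative, and without DBZ 1 it was -0.15 with 75 negative.

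**Figure D2:**
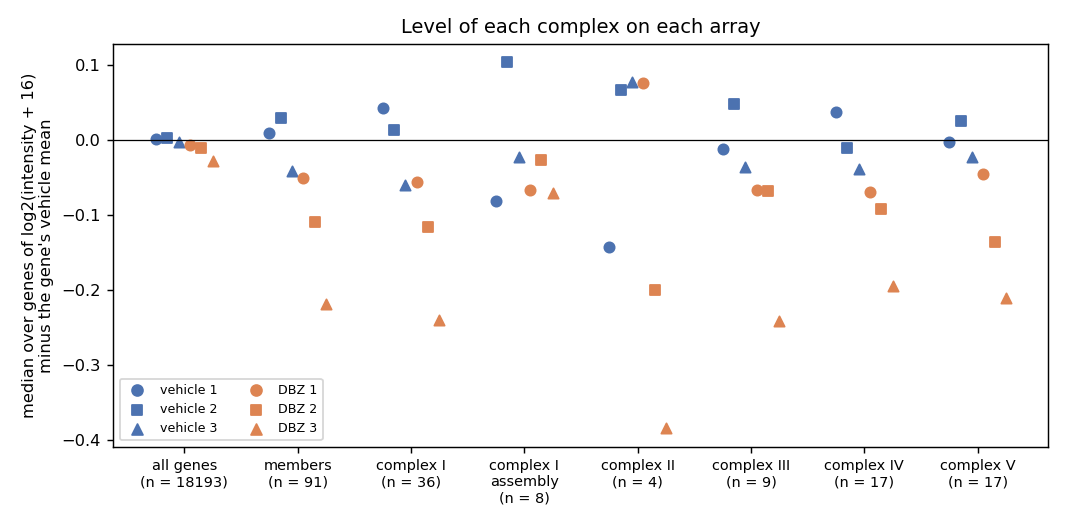
Median over the genes of each complex of log2(intensity + 16) minus the gene's vehicle mean, for each of the 6 arrays (blue vehicle, orange DBZ; marker shape is the replicate number). All genes stay near 0, while DBZ 3 lies at -0.24 for complex I and at -0.38 for complex II, where DBZ 1 lies among the vehicle arrays.

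Complex I had 32 of 36 differences negative, with a median of -0.13, and 1 gene fell. At unadjusted p under 0.05 were 11, 10 lower and 1 higher, against 26.3% of all genes, 11.3% lower and 15.1% higher (limma). Ndufb10 lies in the membrane arm and measured 2022, 2145 and 1996 on the vehicle arrays and 1644, 1719 and 1574 on the DBZ arrays. The groups did not overlap, and the means were 2054 ± 79.5 and 1646 ± 72.5 (SD, n = 3). Its difference was -0.32 ± 0.06 (SE), a mean intensity lower by 19.9% of the vehicle mean. Ndufc2, another membrane arm subunit, measured 5600, 4912 and 4962 in vehicle against 4062, 4160 and 3846 in DBZ (-0.36 ± 0.08, limma, adjusted p = 0.0518). Its other probe sets above the median intensity were at -0.086 and -0.12. The accessory subunit gene Ndufa6 measured 3887, 4684 and 4086 against 3416, 3169 and 3215 (-0.36 ± 0.09, limma, adjusted p = 0.0645). For Ndufc2 and Ndufa6, every DBZ array lay below every vehicle array without passing the threshold.

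The core subunits, which carry the flavin and the iron-sulfur clusters, were negative in all 6 measured cases on the probe sets used. Their median was -0.19, with 0 past the test. At unadjusted p under 0.05 were 3 of them, all lower, against 26.3% of all genes, 11.3% lower (limma). Ndufs7, which holds the cluster next to ubiquinone, measured 3432, 2611 and 2448 in vehicle against 1971, 2084 and 1717 in DBZ. The groups were apart, with vehicle 1 standing high, and the difference was -0.54 ± 0.15 (limma, adjusted p = 0.0813). Its other probe set was at -0.15. Ndufv1, which binds NADH, measured 3295, 3086 and 2988 against 2742, 2534 and 2433 (-0.28 ± 0.07, limma, adjusted p = 0.0771), with its other probe sets at -0.19 and -0.073. Ndufs1, the largest core subunit, was at -0.27 ± 0.09 and likewise apart. Ndufs3, Ndufs8 and Ndufv2 lay between -0.11 and -0.094, with groups that overlapped. Other probe sets of Ndufs8 lay between -0.15 and 0.082, and those of Ndufv2 at -0.25 and -0.29.

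A single gene of complex I stood apart in the other direction. Ndufc1, a small membrane arm subunit found beside Ndufc2, measured 3513, 3318 and 3161 in vehicle and 4158, 4080 and 3860 in DBZ. All DBZ arrays were above all vehicle arrays, and the difference was 0.28 ± 0.07 (limma, adjusted p = 0.0679). Its other probe set was at 0.05. Ndufb6 was at 0.10, Ndufa1 at 0.057 and Ndufb2 at 0.046, all with overlapping groups. The other probe set of Ndufb6 had the opposite sign, at -0.17, while those of Ndufb2 were at 0.098 and 0.026. Ndufa4, first described as part of complex I and counted there, but now placed in complex IV, was at -0.02 (95% interval -0.18 to 0.15). Its paralogue Ndufa4l2, known as a hypoxia-induced gene, had low signal at 70.1 ± 10.1 and 51.5 ± 6.19 (SD, n = 3; -0.35 ± 0.11, limma, adjusted p = 0.123).

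The 8 complex I assembly factors, which help to build the complex and are not part of it, did not share a direction: 4 were positive and 4 negative, with a median of -0.034 and 0 past the test. At unadjusted p under 0.05 were 3, all lower, where 26.3% of all genes were, 11.3% lower (limma).  Ndufaf6 measured 249, 345 and 266 in vehicle against 212, 232 and 168 in DBZ (-0.46 ± 0.16, limma, adjusted p = 0.136). Ndufaf8, which acts with Ndufaf5, was at -0.36 ± 0.13, while Ndufaf5 itself was at 0.13 ± 0.07. Ndufaf4 was at 0.29 ± 0.13, with groups that overlapped.

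Complex II also works in the tricarboxylic acid cycle, and its 4 differences were all negative. Sdhb, the iron-sulfur subunit, measured 4497, 4697 and 4593 in vehicle and 4306, 3565 and 2990 in DBZ. The groups were apart, DBZ 1 lay close to the vehicle arrays, and the difference was -0.36 ± 0.13 (limma, adjusted p = 0.155). Without DBZ 1 it was -0.49 and passed (limma, adjusted p = 0.0363), the only 1 of 18 alternatives in which it did. Sdha, the flavoprotein that binds succinate, measured 3497, 4039 and 3871 against 3867, 3103 and 2595 (-0.27 ± 0.15, limma, adjusted p = 0.315), and its DBZ 1 value lay within the vehicle range. The membrane anchors Sdhc and Sdhd were both at -0.02, with 95% intervals of -0.29 to 0.26 and -0.35 to 0.32. Their other probe sets were at -0.12 and -0.33, and that of Sdha above the median intensity at -0.42. Differences between the subunits were not tested. Of the 4 genes 0 passed, and 1, lower, had an unadjusted p under 0.05, against 26.3% of all genes, 11.3% lower (limma).

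In complex III 8 of 9 differences were negative, with a median of -0.12. None passed, and 3, all lower, had an unadjusted p under 0.05, against 26.3% of all genes, 11.3% lower (limma). Uqcrc2, one of the large matrix-side proteins, measured 5149, 5843 and 5739 in vehicle against 5002, 4508 and 3817 in DBZ (-0.33 ± 0.11, limma, adjusted p = 0.132), and its other probe set was at -0.48. Cyc1, the cytochrome c1 that passes electrons to cytochrome c, measured 6147, 6409 and 6042 against 5616, 5316 and 4325 (-0.29 ± 0.11, limma, adjusted p = 0.151). Both had groups apart and their lowest value on DBZ 3. The Rieske iron-sulfur protein gene Uqcrfs1 was at -0.18 ± 0.13 and Uqcrc1 at -0.12 ± 0.14, with overlap. Uqcrq, a small subunit beside cytochrome b, was the positive exception at 0.08 ± 0.06, with groups apart. Uqcrb was at -0.12, with means of 17194 ± 1848 and 15764 ± 1149 (SD, n = 3).

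Complex IV held both the lowest difference of all 91 genes and several near 0. It had 13 of 17 negative, a median of -0.11 and 0 past the test. At unadjusted p under 0.05 were 4, all lower, against 26.3% of all genes, 11.3% lower (limma). Cox7a1, the isoform of subunit 7a known from heart and skeletal muscle, measured 857, 849 and 666 in vehicle and 579, 398 and 330 in DBZ. The groups were apart, with means of 791 ± 108 and 436 ± 129 (SD, n = 3), and the difference was -0.87 with a 95% interval of -1.38 to -0.35 (limma, adjusted p = 0.0701). It passed when dim genes were left out and in some other settings, among them without DBZ 1 at an adjusted p of 0.0169 (limma). The general isoform Cox7a2 was at -0.11 ± 0.07, with means of 10821 ± 633 and 10023 ± 534. Cox7a2l, a relative that joins complexes III and IV into supercomplexes, measured 3171, 3483 and 3220 against 2717, 2197 and 2197. Its difference was -0.48 ± 0.10 (limma, adjusted p = 0.0526), and its other 2 probe sets were at -0.45 and -0.43.

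On the probe sets used, the remaining general subunits of complex IV lay closer to 0 than Cox7a2l. Cox6c measured 8987, 8523 and 8273 in vehicle against 8013, 6932 and 6807 in DBZ (-0.25 ± 0.08, limma, adjusted p = 0.129). Cox7c was at -0.35 ± 0.09 with groups apart, on a probe set of only 227 ± 27.6 in vehicle arrays. Cox4i1, Cox5b, Cox6b1 and Cox5a were at -0.16, -0.15, -0.13 and -0.084, all overlapping. Other probe sets of Cox5a were lower, at -0.25 and -0.23. Those of Cox5b above the median intensity lay between -0.28 and -0.20. Cox6a1 measured 20038, 19047 and 18764 against 20992, 18976 and 18447, a difference of 0.01 with a 95% interval of -0.16 to 0.19. Other isoforms known from muscle, testis or lung had low signal: Cox8c averaged 145 in vehicle arrays, Cox6a2 113, Cox6b2 86.2, Cox8b 37.4, Cox4i2 31.1 and Cox7b2 8.69. Their differences lay between -0.11 and 0.29, and 0 of the 6 passed, also at unadjusted p under 0.05 (limma).

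**Figure D3:**
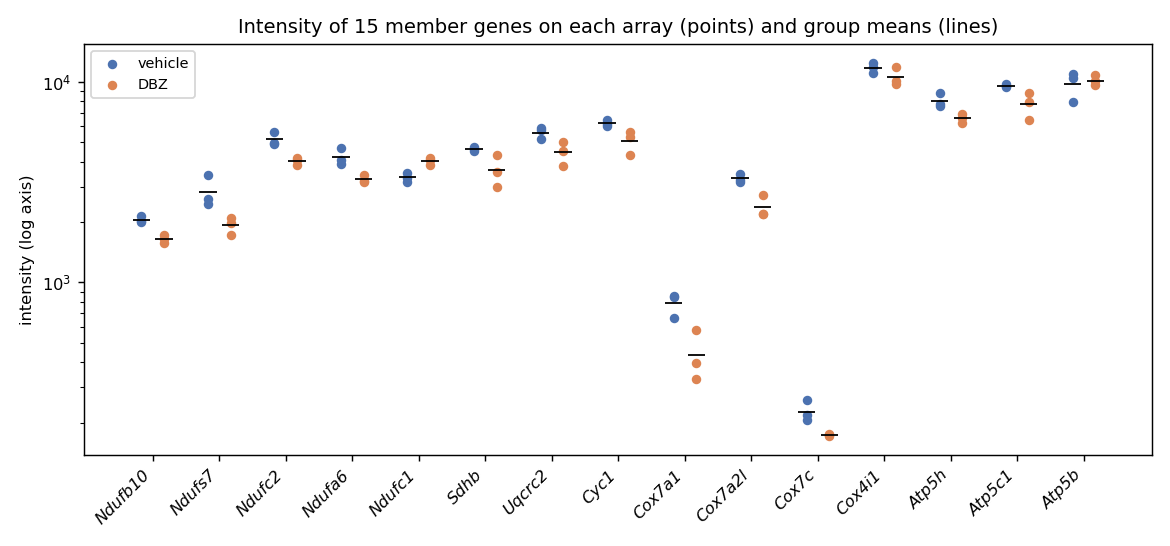
Intensity (log axis) of 15 genes of the chain and the synthase on each array (points; blue vehicle, orange DBZ) with group means (lines), 3 mice per group. Ndufb10 and Ndufc2 show groups apart in the lower direction and Ndufc1 in the upper, while the DBZ points of Sdhb, Atp5c1 and Cox7a1 are spread.

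ATP synthase genes were negative in 15 of 17 cases, with a median of -0.11 and 0 past the test. An unadjusted p under 0.05 was reached by 3, all lower, against 26.3% of all genes, 11.3% lower (limma). In the catalytic F1 head, Atp5c1, the gamma subunit of the rotating shaft, measured 9531, 9719 and 9401 in vehicle and 8732, 7894 and 6455 in DBZ. All DBZ arrays were lower and spread more than the vehicle arrays (-0.32 ± 0.11, limma, adjusted p = 0.145). Atp5d, the delta subunit of the same shaft, measured 9502, 9058 and 8538 against 8474, 7494 and 6261 (-0.29 ± 0.12, limma, adjusted p = 0.182), with another probe set at -0.18. The catalytic beta subunit gene Atp5b measured 7874, 10950 and 10416 against 10731, 10039 and 9596, with vehicle 1 low, and was at 0.07 ± 0.13. Atp5a1, the alpha subunit, was at -0.09 ± 0.08, with its other probe sets at 0.053 and -0.59. Parts of one head thus lay at different distances from 0, a difference that was not tested.

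The peripheral stalk, which holds the head still, was negative in all 4 cases on the probe sets used, while another of Atp5pb was at 0.062. Atp5h, its subunit d, measured 8742, 7776 and 7598 in vehicle against 6899, 6592 and 6251 in DBZ (-0.29 ± 0.08, limma, adjusted p = 0.0849), with another probe set at -0.12. Atp5o was at -0.31 ± 0.15, with DBZ 1 inside the vehicle range and another probe set at -0.53. The 3 genes of the c ring, Atp5g1, Atp5g2 and Atp5g3, encode the same mature subunit with different targeting sequences. They were at 0.036, -0.11 and -0.11, with 0 past the test and 0 at unadjusted p under 0.05 (limma). The 5 small membrane subunit genes lay between -0.20 and -0.061.

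Probe sets of one gene mostly had the same sign but not the same size. Of 47 genes with at least 2 probe sets above the median intensity, 36 were negative on all of them, 3 were positive on all and the other 8 were mixed. Of all 180 probe sets 150 were negative. Among the probe sets with several symbols, the bright pair of Ndufb4 and its copies was at -0.21 and -0.22, while the single-symbol probe set of Ndufb4 lay below the array median. That of Ndufab1 and its pseudogene was at -0.35, beside -0.29 for Ndufab1 alone, and near-identical copies cannot be told apart on either.

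Promoter sequences were read because the genes mostly lay on the same side of 0 and because many are known targets of NRF1 and GABP, factors that drive nuclear genes for mitochondria. RefSeq promoter windows of 300 bases (build GRCm38.p6) were found for 74 of the 91 genes, 79 windows in all. The NRF1 letters, GCGC, then any base, then TGCGC, were searched on both strands and stood in 22.8% of these windows, against 7.43% of the windows of all measured genes and 4.60% of all windows. The GABP letters CCGGAAG stood in 24.1%, against 13% and 8.86%. The letter sets do not overlap each other in the sequences shown. These shares describe letters in windows and show no binding.

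The promoters of 4 genes are shown as examples with and without these letters, each as the 250 bases before the gene start, 5' to 3' on the gene's strand, with matches in capitals. Atp5h (chr11:115419920-115420169, minus strand) has both letter sets and a difference of -0.29. Cox6a1 (chr5:115348959-115349208, minus strand) has 2 NRF1 matches and 1 GABP match and a difference of 0.01. Ndufb10 (chr17:24724424-24724673, minus strand) and Cox7a1 (chr7:30183921-30184170, plus strand) have neither, with differences of -0.32 and -0.87.
Atp5h: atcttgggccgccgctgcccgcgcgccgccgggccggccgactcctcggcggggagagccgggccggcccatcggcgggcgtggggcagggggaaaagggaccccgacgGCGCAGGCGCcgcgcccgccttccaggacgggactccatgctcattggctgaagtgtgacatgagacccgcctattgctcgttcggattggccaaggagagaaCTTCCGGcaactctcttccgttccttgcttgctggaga
Cox6a1: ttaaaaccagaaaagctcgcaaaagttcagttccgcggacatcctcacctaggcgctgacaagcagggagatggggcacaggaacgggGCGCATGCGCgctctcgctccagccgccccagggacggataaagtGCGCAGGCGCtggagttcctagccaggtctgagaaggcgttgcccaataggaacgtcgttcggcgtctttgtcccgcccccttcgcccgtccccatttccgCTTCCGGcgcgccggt
Ndufb10: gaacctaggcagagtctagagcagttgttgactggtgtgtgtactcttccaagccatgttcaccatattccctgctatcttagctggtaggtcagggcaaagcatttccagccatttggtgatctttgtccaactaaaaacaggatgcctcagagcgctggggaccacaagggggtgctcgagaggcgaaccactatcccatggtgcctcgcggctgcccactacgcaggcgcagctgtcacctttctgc
Cox7a1: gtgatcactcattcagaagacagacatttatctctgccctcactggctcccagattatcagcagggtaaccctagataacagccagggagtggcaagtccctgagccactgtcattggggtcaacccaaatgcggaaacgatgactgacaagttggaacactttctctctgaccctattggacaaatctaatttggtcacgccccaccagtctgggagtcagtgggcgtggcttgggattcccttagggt
The 4 were chosen with their differences known, and no relation between letters and differences was tested.

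Upstream of the subunits, regulators of mitochondrial biogenesis lay on both sides of 0. Of 24 measured, 2 fell and 0 rose, 14 were negative, and the median was -0.061, with values from -1.45 to 0.83. At unadjusted p under 0.05 were 9, 8 lower and 1 higher, against 26.3% of all genes, 11.3% lower (limma). Polrmt, the RNA polymerase that transcribes mitochondrial DNA, measured 349, 362 and 341 in vehicle and 275, 237 and 244 in DBZ, and fell by 0.46 (SE 0.07, limma, adjusted p = 0.0324). Ppargc1b, a coactivator of respiratory genes, measured 444, 355 and 491 against 251, 271 and 259, and fell by 0.68 (SE 0.12, limma, adjusted p = 0.038). The DBZ arrays lay below all vehicle arrays for both. Leaving out vehicle 1, 2 or 3 or DBZ 2 or 3 ended both calls (limma, adjusted p 0.061 to 0.117), while both held without DBZ 1.

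Ppargc1a, the best known coactivator of the family, measured 495, 656 and 544 in vehicle and 331, 220 and 101 in DBZ. Its difference was -1.45 ± 0.38 and did not pass (limma, adjusted p = 0.0798). It passed in 5 of 18 alternatives, 1 of them the threshold of 0.1. The others were without DBZ 1, with array weights and when dim genes were left out (limma, adjusted p = 0.0271, 0.0268 and 0.0421). Of all genes those settings called 11.2%, 14.8% and 12.8% to 13.8%, against 5.34%. Leaving out any other array gave an adjusted p of 0.0702 to 0.192 (limma). Esrra, the nuclear receptor that works with it, measured 1490, 1440 and 1511 against 1182, 870 and 742 (-0.69 ± 0.16, limma, adjusted p = 0.0664). Tfam, which packs mitochondrial DNA and takes part in its transcription, was at -0.41 ± 0.13, and Nrf1 at -0.28 ± 0.07, both with groups apart. Gabpa was at 0.011 ± 0.08, Hif1a, the oxygen-regulated factor, at 0.83 ± 0.20 (limma, adjusted p = 0.065), and Pprc1, a relative of the coactivators, at 0.51 ± 0.24 with overlapping groups.

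Other mitochondrial genes gave counts and medians as follows. The electron carriers and exchangers had 19 of 22 negative and a median of -0.16 with 0 past the test (3 at unadjusted p under 0.05, all lower, limma). Among them cytochrome c, Cycs, was at -0.08 ± 0.09 and the outer membrane channel Vdac1 at -0.38 ± 0.12. The tricarboxylic acid cycle list had 11 of 18 negative, a median of -0.053 and 0 past the test (4 at unadjusted p under 0.05, all lower, limma). In it citrate synthase, Cs, was at -0.37 ± 0.16. Assembly factors outside the symbol rule had 23 of 37 negative and a median of -0.083, with 0 past the test. At unadjusted p under 0.05 were 9, of which 7 were lower and 2 higher (limma). Of all genes 26.3% reached that unadjusted p, 11.3% lower and 15.1% higher (limma). Of 76 mitochondrial ribosome genes 47 were negative, with a median of -0.060, and 2 fell: Mrps9 by 0.51 and Mrps6 by 0.46 (limma, adjusted p = 0.0252 and 0.0371). An unadjusted p under 0.05 was reached by 23 of the 76, 19 lower and 4 higher (limma). ND5, the complex I subunit encoded in mitochondrial DNA and the only such gene analysed here, was at -0.087 ± 0.09.

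**Figure D4:**
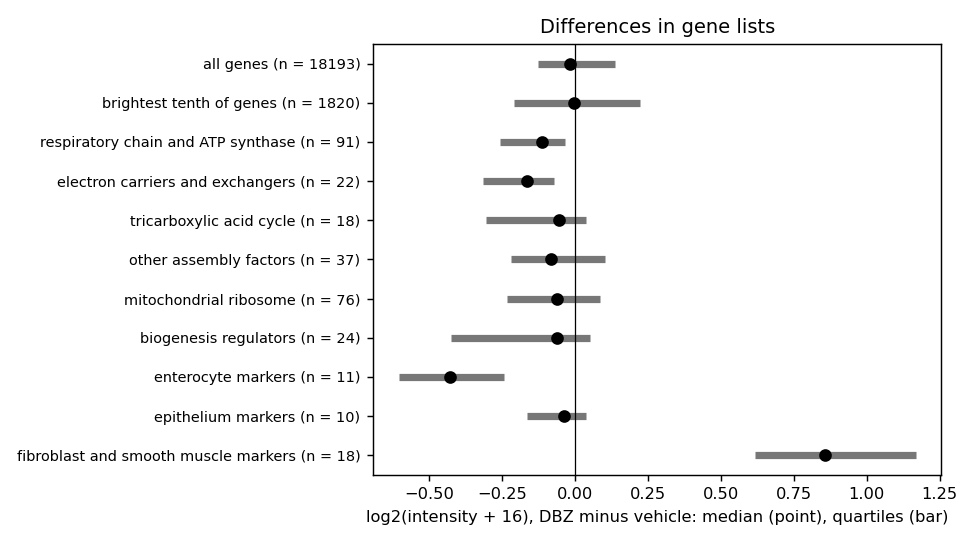
Median (points) and quartiles (bars) of the difference in log2(intensity + 16), DBZ minus vehicle, over the genes of each list, with the number of genes in brackets. The respiratory chain and ATP synthase genes lie at -0.11 with both quartiles below 0, enterocyte markers lower at -0.43 and fibroblast and smooth muscle markers at 0.86.

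Markers of other cells moved in the same arrays. The 11 enterocyte markers, genes of the absorptive cells, were all negative with a median of -0.43 and 0 past the test (6 at unadjusted p under 0.05, limma), and Lct was below the array median throughout. Relative to vehicle their median was -0.31, -0.50 and -0.83 on DBZ arrays 1, 2 and 3, the same order as for the respiratory genes. The median of all genes lay in that order too, at -0.0073, -0.011 and -0.029, so the order is not particular to these lists. Vehicle arrays had sums over the enterocyte markers of 74616 to 78314, and DBZ arrays of 55647 to 73368, all lower. Fibroblast and smooth muscle markers rose in 10 of 18 cases, with sums of 25515 to 36696 and 54237 to 62866. Adipocyte markers rose in 4 of 11 (sums 3218 to 7036 and 12226 to 29825) and endothelial markers in 3 of 10 (sums 1268 to 1341 and 1693 to 1934). Of the adipocyte markers 9 were positive and 2 negative. The lowest was Pck1 at -1.64 ± 0.38, with DBZ arrays below all vehicle arrays (limma, adjusted p = 0.0607). Goblet markers rose in 3 of 8, with sums of 108693 to 116568 and 135082 to 166862, and enteroendocrine markers in 3 of 8, with sums of 2144 to 2660 and 3946 to 8727. Of 10 epithelial markers 0 passed, with 3 at unadjusted p under 0.05 (limma), and their sums overlapped at 108883 to 120520 and 110038 to 117568. Neutrophil markers rose in 2 of 11 cases. Paneth markers were mixed: 3 of 8 rose and 5 were negative, down to -2.70 for Ang4, with a median of -0.16. Of 10 stem cell markers 3 fell (Olfm4, Aqp4 and Ascl2), 5 were positive and the median was -0.035, with values from -6.63 to 0.43. Of 12 striated muscle markers 7 were below the array median on all arrays, 9 were negative with a median of -0.047, and 2, Acta1 and Ckm, rose by 1.87 and 0.60. No marker is listed at 0. The part of these cells in the respiratory values was not tested.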

How the data were processed

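The authors' deposited tables hold 1 linear intensity per probe set and array, with array medians that nearly coincide. Per the labels' protocols, RNA was amplified with a 3' IVT kit and labelled with biotin. How the intensities were background-corrected and normalized is not given in the sources used here. The values were kept as deposited, since array medians on the log2(intensity + 16) scale differed by less than 0.1. Probe sets with several symbols (932), with none (9160) and array controls (64) were left out of the test, and a gene kept the probe set whose mean log2 value was highest. The test was limma's moderated one (version 3.58.1, R 4.3.3, lmFit then eBayes, two-sided), with Benjamini-Hochberg adjustment over 18193 genes and a threshold of 0.05. The fit was tested on simulated data. SE is moderated, SD is of intensities, and 95% intervals come from limma. The number of arrays limits the precision.

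The genes, the lists and the tests were chosen with earlier results of these data known. All 91 genes could be named. Chosen for values on each array were core subunits and isoform pairs, genes past the threshold or with the smallest p of their complex, and the highest and lowest of each complex. Such values are printed for only some of these, mostly genes with groups apart, and are left out for the others. Ndufc2, Ndufa6 and Cox6c were given with such values, and Esrra, Nrf1, Gabpa, Hif1a, Pprc1, Ang4, Pck1 and Vdac1 were named, after their values were seen. No list was tested as a set. Alternatives were quantile normalization, median centring, pseudocounts of 1 and 64, leaving out dim genes or some probe sets, averaging probe sets, a trended robust variance, weights per array, a block for the replicate number, a threshold of 0.1 and leaving out each array. The dose of DBZ is not used here, because its unit in the labels appears to be incomplete.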

Additional observations from a re-analysis of the deposited data

How the results depend on the processing

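With 3 arrays a group, the number of calls changed whichever array was left out. Leaving out 1 array gave 19 to 2032 changed genes in place of 972, 0 to 4 respiratory chain and ATP synthase genes in place of 1, 0 to 17 genes of the other mitochondrial lists in place of 4, and 0 to 3 of the 45 respiratory genes chosen for full values in place of 1. In that order of counts, quantile normalization gave 944, 5, 8 and 3. Centring on array medians gave 793, 1, 4 and 0, a pseudocount of 1 gave 1353, 2, 6 and 2, and one of 64 gave 440, 1, 3 and 1. The filter on the mean gave 1257, 2, 8 and 2, that on 3 arrays 1530, 2, 8 and 2, trend with robust variance 1362, 1, 7 and 1, array weights 2690, 10, 28 and 7, and a threshold of 0.1 gave 2575, 11, 19 and 8. The cause of these moves was not tested. The median over the 91 genes stayed negative in every alternative run, from -0.15 to -0.081. That of all genes turned to 0.019 and 0.013 with the filters on the mean and on 3 arrays.

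Ndufb10 lost its call in 12 of 18 alternatives, among them median centring (limma, adjusted p = 0.0527), and Cox7a1 gained one in 8. Whether replicate numbers pair the mice could not be settled, because each group holds few arrays. Deviations of same-numbered arrays correlated at -0.0086, 0.25 and 0.20. The values 0.25 and 0.20 were the highest of all vehicle and DBZ pairs. Differently numbered pairs lay between -0.29 and 0.014. The arrays of the pair at -0.0086 each correlated better with another number. With the replicate number as a block 889 genes and 1 respiratory gene were called (limma), Cox7a1 at an adjusted p of 0.0451, while Ndufb10 was at 0.0659. Few arrays and low signal limit the dim isoforms.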
